A study of Mus musculus with 16 samples.

Results

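Pericytes and smooth muscle cells of the mouse spinal cord were examined in 15 mice, as the cells that the deposited cell table places in its Cluster 9 and names pericytes. The cluster held 836 of 18203 cells, and each mouse used contributed 12 to 90 of them. Dissociated spinal cord from around the lesion had been sequenced as 10x Genomics Chromium 3′ libraries, 1 library per mouse, and what was counted were unique molecular identifiers (UMIs), each standing for 1 captured RNA molecule. The mice were Rykfl/fl,GFAPcreERT2 (here cKO) or Ryk+/+,GFAPcreERT2 (here WT), so that both genotypes carried the tamoxifen-inducible Cre, and the methods give tamoxifen for the mice from before the operation onwards. They were 8 to 10 weeks old and were taken 1 d, 7 d or 14 d after a lesion of the dorsal columns at the C5 level, or without it, with 2 mice in each of 8 conditions. The labels name the mice without a lesion Sham, the paper calls them uninjured, and they are called uninjured here. The GFAP promoter was chosen to drive Cre in astrocytes and not in cells of the vessel wall, where recombination was not measured here. In 1 of the 16 mice, WT 1 d replicate 2, the library held a single cell and none of this cluster, so WT at 1 d rests on 1 mouse. For 6 mice, each the second replicate of its condition, the cell names in the matrix carry a condition that differs from the title, and the titles were followed.

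Pericytes are cells embedded in the basement membrane of capillaries, where they lie against the endothelium, and smooth muscle cells ring arterioles and larger vessels. Both are called mural cells. Endothelial PDGF-B recruits them through their receptor PDGFRB, and in the central nervous system pericytes help to keep the blood barrier tight. Smooth muscle cells, and to a lesser degree pericytes near arterioles, set the vessel's diameter with an actin and myosin apparatus that calcium entry switches on and that cyclic GMP and potassium channels relax. After spinal cord injury pericytes and perivascular fibroblasts are both discussed as sources of scar-forming cells.

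The defining markers of the label were present. Levels are given as CPM, the UMIs of a gene per 1000000 UMIs summed over the cluster's cells of 1 mouse. Vtn (ENSMUSG00000017344, chr11:78499091-78502324), which encodes the matrix glycoprotein vitronectin, had a level of 2971 to 7314 CPM over the 15 mice with a median of 4070, against a mean of 55.6 CPM in the endothelial cluster. Abcc9 (chr6:142587862-142702315), the sulphonylurea receptor subunit of the vascular ATP-sensitive potassium channel, ranged from 481 to 1852 CPM with a median of 1132 and averaged 30.0 CPM in endothelial cells. Rgs5 (chr1:169655501-169695813), a regulator of G protein signalling, ranged from 2390 to 6675 CPM with a median of 4049, against 746 CPM in endothelial cells. Each of these genes was above the endothelial cluster of the same mouse in 15 of 15 mice. Pdgfrb (chr18:61045150-61085061), the receptor for PDGF-B, had 568 to 1393 CPM with a median of 1060, against 14.4 CPM in endothelial cells and 109 CPM in fibroblasts. Acta2 (chr19:34241090-34255590), smooth muscle alpha actin, had 0 to 3934 CPM with a median of 1114, against 3.02 CPM in endothelial cells. Its SD of 1082 CPM around a mean of 1421 CPM was the widest in proportion among the 5 markers. Positions are those of GRCm38/mm10. The 10 genes with the highest ratio to all other cells were Acta2, Tagln, Myh11, Vtn, Myl9, Higd1b, Kcnj8, Slc38a11, Tpm2 and Abcc9, so contractile and pericyte genes led the cluster together. The clusters were built from the expression of the same cells, so no test of the cluster against other cells was made.

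Counted by cells, Vtn had at least 1 UMI in 79.3% of the members (median of 1420 UMIs per cell) and in 6.57% of endothelial cells (median of 890 UMIs). Whether free RNA, mixed droplets or expression gave the share in endothelial cells was not tested. With each cell thinned to 500 UMIs, which left out 179 members and 1047 endothelial cells, these shares were 61.3% and 1.84%. The same thinned shares were 38.2% and 1.17% for Abcc9, 70.6% and 17.1% for Rgs5, 38.5% and 0.698% for Pdgfrb, and 14.2% and 0.159% for Acta2. Before thinning they were 56.5% and 4.90%, 82.1% and 25.4%, 66.1% and 2.76%, and 20.2% and 0.309% in the same order. Acta2 was thus detected in a minority of the members, whereas Vtn and Rgs5 were detected in most.

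**Figure D1:**
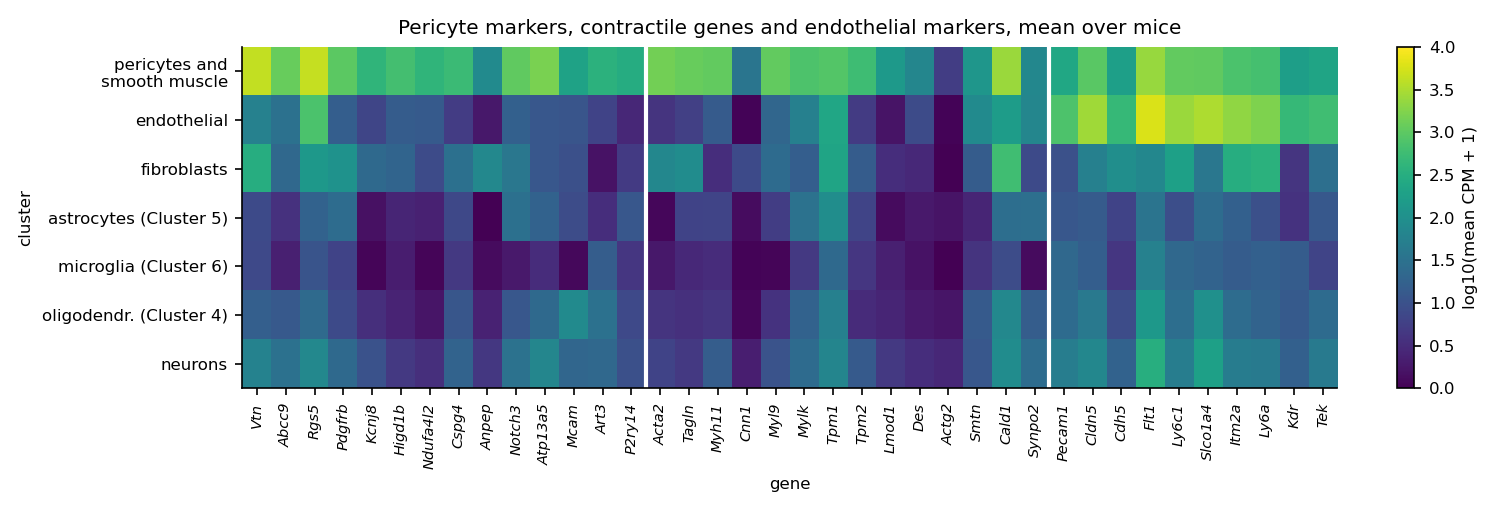
Mean level over mice, as log10(CPM + 1), of 14 pericyte markers, 14 contractile genes and 10 endothelial markers (columns) in the cluster and in 6 other clusters (rows). The pericyte and contractile blocks are brightest in the top row, and the endothelial block is also visible there, below the endothelial cluster itself.

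The libraries differed in depth. The members of a mouse summed to 31037 to 645930 UMIs, and the median per cell ran from 387 to 5275 UMIs over the 15 mice. It was under 600 UMIs in 4 libraries, replicate 1 of both genotypes at 1 d and at 7 d. Of the members, 6 (0.718%) had a barcode that was also found in another library.

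The cluster made up 4.83% ± 1.59 (SD, n = 15) of the cells of a mouse, from 2.53% to 7.32%. In the uninjured mice the share was 6.53% and 2.53% in WT and 5.77% and 2.67% in cKO. It was 7.32% in the WT mouse at 1 d and 6.46% and 2.93% in cKO, 5.40% and 4.52% in WT and 3.42% and 5.92% in cKO at 7 d, and 6.71% and 4.60% in WT and 3.61% and 4.08% in cKO at 14 d. The ranges of all time points overlapped, and the exact 95% interval of a single mouse, such as 5.07% to 8.26% around 6.53%, covers counting error only. The mean over the injured mice lay 0.682 percentage points above the uninjured mice within genotypes, with p = 0.457 (exact permutation over 588 arrangements, 2-sided). cKO lay 1.58 points below WT after injury (difference -1.58, p = 0.176, exact permutation within time points, 108 arrangements), and the difference was -2.16 to -0.987 points with 1 mouse left out and -0.206 points without the 4 shallow libraries.

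Set against the endothelial cells of the same mouse, which shared dissociation and depth with them, there were 21.1 ± 6.85 members per 100 endothelial cells (n = 15). The mean was 16.9 ± 8.17 in the 4 uninjured mice, 18.6 ± 2.42 in the 3 mice at 1 d, 21.6 ± 7.60 in the 4 mice at 7 d and 26.6 ± 4.56 in the 4 mice at 14 d. At 14 d the mice spanned 22.8 to 32.4 and the uninjured mice 9.59 to 26.1, so the ranges overlapped. Injured minus uninjured was 5.79 (p = 0.177, exact permutation), and with 1 mouse left out it was 1.67 (without cKO uninjured replicate 2) to 9.91 (without cKO uninjured replicate 1), with WT uninjured replicate 2 also moving it by over 1.5 times. The difference cKO minus WT after injury was -1.40 (p = 0.759, exact permutation). Without cKO 7 d replicate 2, which had 33.0 members per 100 endothelial cells, the genotype difference was -4.10 with an exact permutation p of 0.0185, and without the 4 shallow libraries it was 3.67. The genotypes' responses to injury differed by -0.995 points for the share of cells (p = 0.573) and by -3.73 per 100 endothelial cells (p = 0.608) in exact permutation tests of the difference itself.

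**Figure D2:**
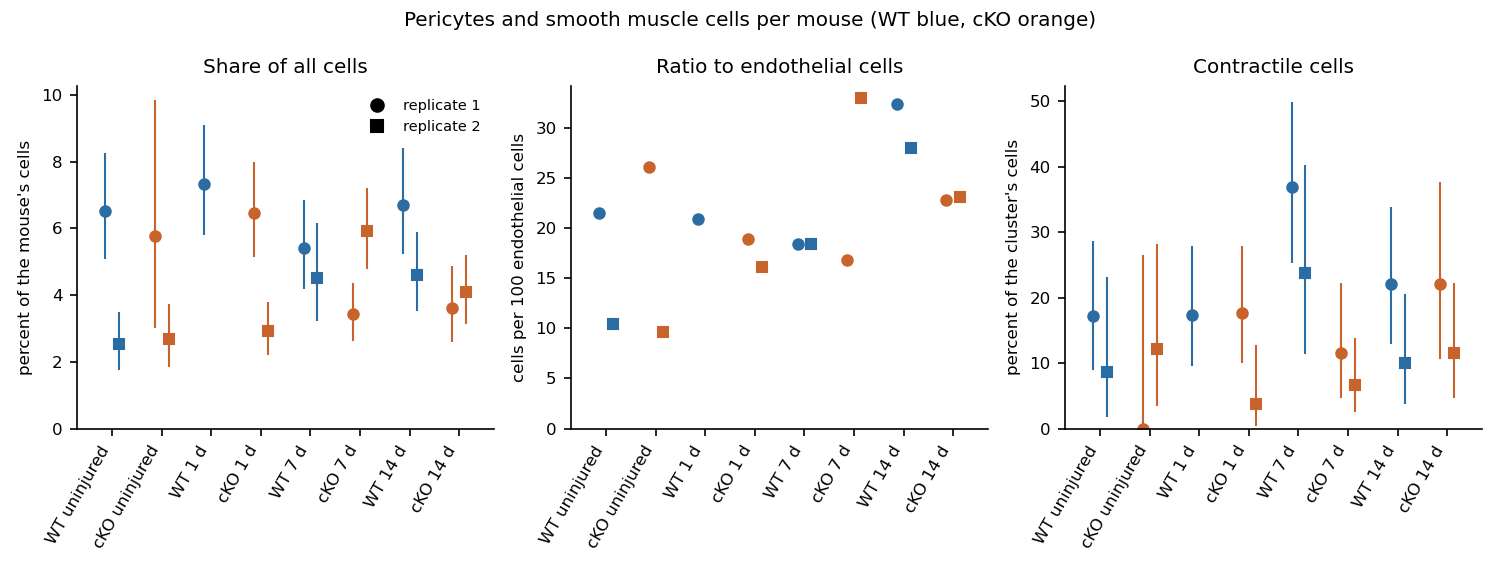
The cluster in each mouse by condition, as a share of all cells with its exact 95% interval, per 100 endothelial cells, and as the share of its own cells that counted as contractile; WT in blue and cKO in orange. Mice of 1 condition often lie farther apart than the conditions do.

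To look for smooth muscle within the cluster, a member was counted as contractile when the UMIs of Acta2, Tagln and Myh11 (actin, transgelin and the smooth muscle myosin heavy chain) made up at least 0.5% of its UMIs. This is a range of a score and not a cell type. It held 130 of the 836 members (15.6%), 62 members lay near the limit, between 0.25% and 1%, and 517 had no UMI of the 3 genes. Outside the cluster 4 cells reached the limit (0.0230%), 3 of them annotated as fibroblasts. The median depth was 1518 UMIs in contractile members and 1416 UMIs in the others. Their levels were compared within the 11 mice that had at least 5 cells on each side, as a description without a test.

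The genes of the contractile apparatus that the score did not use followed it. Myl9, the regulatory myosin light chain, had a mean level of 3792 ± 1376 CPM in contractile members and 580 ± 200 CPM in the others. Mylk, the kinase that activates this light chain, had 2670 ± 727 CPM against 425 ± 97.4 CPM. The tropomyosins Tpm2 (2579 against 96.1 CPM) and Tpm1 (3205 against 446 CPM) and Lmod1 (775 against 39.7 CPM), a nucleator of smooth muscle actin filaments, were also higher in contractile members, and all 5 genes were so in 11 of 11 mice. Cnn1, calponin, had 186 CPM in contractile members and 0.301 CPM in the others. Des, which encodes desmin and is also a pericyte marker, was higher in 9 of 11 mice, with 182 ± 147 CPM against 50.5 ± 37.5 CPM. Cald1, caldesmon, differed less, with 4016 against 2425 CPM. Pln, phospholamban, which restrains the calcium pump of the sarcoplasmic reticulum, had 804 CPM against 8.56 CPM.

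Myocd, the coactivator with which serum response factor turns on smooth muscle genes, had 343 ± 170 CPM in contractile members and 8.30 ± 11.2 CPM in the others and was higher in 10 of 11 mice. Srf, its partner, had 16.3 ± 22.5 CPM and 10.3 ± 13.1 CPM and was higher in 5 of 11 mice. Serum response factor binds a motif known as the CArG box. Because the contractile genes varied together, the promoters of the 14 genes of that list were searched for the strict form of this box on both strands, in 250 bases before and 50 bases after the start site, a motif chosen after the values were known. RefSeq (GRCm38.p6) gave a promoter for 11 of the 14 genes, and 1 of the 11 held a box, that of Myl9. Of all 32851 mouse promoters searched 535 (1.63%) held one, and of 11 pericyte marker genes with a promoter none did. The 250 bases before the start site are shown for Myl9 (chr2:156775214-156775463, + strand), with the box in capitals starting 161 bases before the start site, and for Acta2 (chr19:34255374-34255623, − strand), the first of the leading genes, which held no strict box in this window.
Myl9: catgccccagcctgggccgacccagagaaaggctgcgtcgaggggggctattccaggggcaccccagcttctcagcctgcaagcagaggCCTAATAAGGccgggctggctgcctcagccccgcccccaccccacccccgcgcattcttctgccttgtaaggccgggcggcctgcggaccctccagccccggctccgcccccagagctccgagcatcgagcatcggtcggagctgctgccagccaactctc
Acta2: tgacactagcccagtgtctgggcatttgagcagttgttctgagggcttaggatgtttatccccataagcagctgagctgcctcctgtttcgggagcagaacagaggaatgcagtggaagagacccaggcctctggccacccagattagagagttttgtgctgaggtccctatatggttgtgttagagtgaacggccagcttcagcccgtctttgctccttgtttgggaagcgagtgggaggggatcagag
A match describes letters in a window and does not show binding. Boxes that depart from the strict form were not searched for, so a promoter without a match may still hold one.

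**Figure D3:**
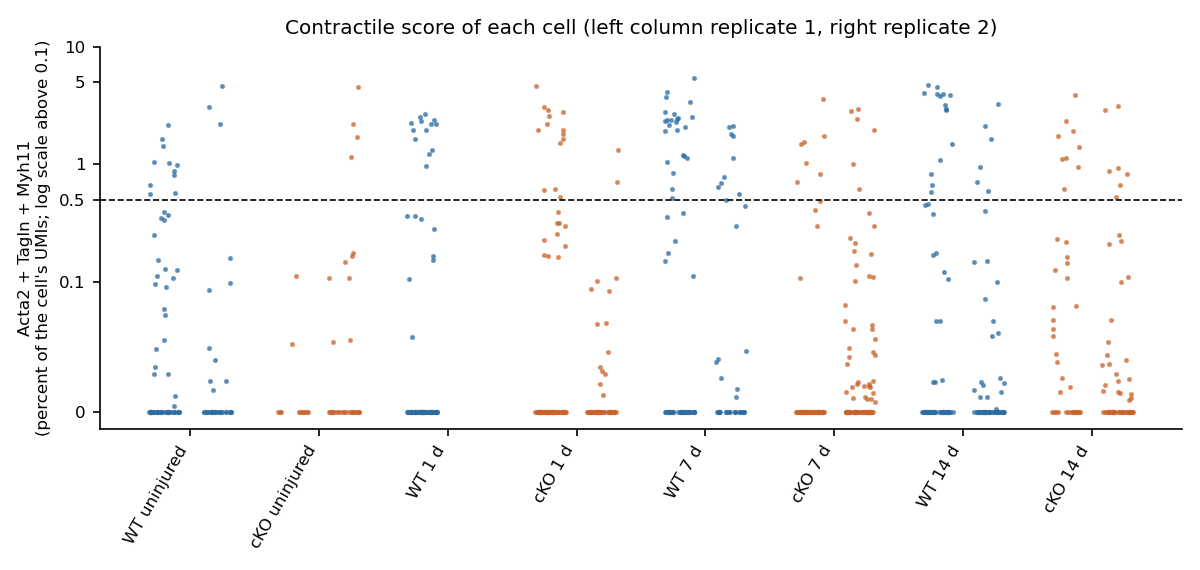
Each point is 1 member, placed by mouse (left column replicate 1, right column replicate 2, absent for WT 1 d) and by the share of its UMIs from Acta2, Tagln and Myh11, in percent on an axis that is logarithmic above 0.1; WT in blue, cKO in orange. The dashed line is the limit of 0.5%, and the 517 cells without a UMI of these genes lie at 0.

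Pericyte genes ran the other way. Abcc9 had 40.5 ± 57.4 CPM in contractile members and 1537 ± 557 CPM in the others. Kcnj8, the pore subunit of the same potassium channel, had 26.1 ± 55.9 CPM against 535 ± 97.6 CPM. Vtn had 651 ± 450 CPM against 4646 ± 691 CPM. These 3 genes were lower in contractile members in 11 of 11 mice, as was Art3 (34.9 against 428 CPM), whereas Atp13a5, a transport ATPase and pericyte marker, was lower in 10 of 11 (435 against 1986 CPM). Other pericyte markers were nearer to each other in the 2 groups. Rgs5 had 3380 ± 1779 CPM against 5344 ± 1541 CPM and Pdgfrb 576 ± 253 CPM against 1131 ± 357 CPM. Cspg4, the NG2 proteoglycan, had 533 ± 262 CPM against 515 ± 168 CPM and was higher in contractile members in 7 of 11 mice. Notch3 (1519 against 1035 CPM), the receptor through which endothelial Jagged keeps mural cells differentiated, was higher in contractile members in 10 of 11 mice, and Mcam (493 against 131 CPM) in 11 of 11.

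Channels and the cyclic GMP pathway also divided the cluster. Cacna1c, the pore of the L-type calcium channel, had 2170 ± 757 CPM in contractile members and 1252 ± 374 CPM in the others and was near 0 in endothelial cells (16.6 CPM). Ryr2, the ryanodine receptor, had 172 ± 95.9 CPM against 9.78 ± 8.92 CPM. Both genes were thus higher in contractile members on average. Ano1, a calcium-activated chloride channel, did not separate them, with 684 ± 425 CPM and 664 ± 216 CPM. The phosphodiesterases Pde3a (2189 against 354 CPM) and Pde5a (808 against 336 CPM), which break down cyclic nucleotides, were higher in contractile members in 11 of 11 mice. The guanylate cyclase subunits that sense nitric oxide had mean levels of 596 against 346 CPM (Gucy1a1) and 463 against 472 CPM (Gucy1b1).

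Among receptors and ligands of vessel signalling, Ednra, the endothelin receptor of mural cells, averaged 327 ± 113 CPM in the cluster and 1.95 CPM in endothelial cells, and S1pr3, a receptor for sphingosine-1-phosphate, 229 ± 99.0 CPM and 3.61 CPM. Both were above the endothelial cluster in 15 of 15 mice. In contractile and other members Ednra had 371 ± 155 CPM and 315 ± 96.0 CPM and was higher in contractile members in 5 of 11 mice. The ligand Jag1 (308 against 119 CPM) was higher in contractile members in 11 of 11 mice, and the angiopoietin Angpt1, which stabilises vessels through the endothelial receptor TEK, in 10 of 11 (269 against 40.0 CPM). Pdgfra, a fibroblast and oligodendrocyte precursor receptor, was low in the cluster, with 15 UMIs in all and 3.82 CPM against 271 CPM in fibroblasts. Of the transcription factors, Tbx2 averaged 173 ± 52.1 CPM (2.71 CPM in endothelial cells), Foxs1 47.9 ± 23.1 CPM (0.496 CPM) and Hey2, a Notch target, 93.8 ± 45.9 CPM (1.97 CPM), each above the endothelial cluster in 15 of 15 mice. Epas1 and Foxf2 were not above it in most mice (2 and 4 of 15).

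Basement membrane genes were abundant in the cluster. Lama2, a laminin alpha chain, averaged 709 ± 206 CPM against 8.83 CPM in endothelial cells, and Nid1, nidogen, 348 ± 90.5 CPM against 56.1 CPM. The collagen IV gene Col4a1 was also above the endothelial cluster in 15 of 15 mice, with 723 ± 152 CPM against 505 CPM. Lama2 was largely a gene of the members that were not contractile (874 against 123 CPM), while Lama5 (169 against 35.3 CPM) and Col18a1 (207 against 35.7 CPM) were higher in contractile members in 10 of 11 mice. The fibrillar collagen genes Col1a1, Col1a2 and Col3a1 were below the fibroblasts of the same mouse in 9 of 9 mice, at unequal levels. Col1a1 had 17 UMIs in all members together and a mean of 7.90 CPM, against 2636 CPM in fibroblasts. Col1a2, the other chain of type I collagen, averaged 99.2 ± 51.5 CPM, against 2746 CPM in fibroblasts and 8.07 CPM in endothelial cells, and Col3a1 53.2 ± 36.1 CPM, against 2962 and 1.98 CPM. Dcn, decorin, had 61.9 CPM against 6075 CPM in fibroblasts. Il34, the second ligand of the microglial receptor CSF1R, averaged 385 ± 139 CPM in the cluster, 101 CPM in fibroblasts and 3.33 CPM in endothelial cells. Of 10 cell cycle genes none passed the filter on low counts, and Mki67 was detected in 0 of 836 members. That count allows up to 0.359% of cells with a UMI of Mki67 and, since a cell can miss the RNA at these depths, sets no limit on cycling cells.

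A further part of the cluster carried endothelial RNA. UMIs of 10 endothelial markers made up 0.5% or more of the UMIs in 35.4% of the members that were not contractile and in 7.69% of the contractile ones. The share was 84.5% in the endothelial cluster, 6.74% in fibroblasts, 3.82% in neurons and 0.398% to 2.04% in Cluster 5 astrocytes, Cluster 6 microglia and Cluster 4 oligodendrocytes. The limit was chosen after seeing the data, and 102 of the members that were not contractile lay between 0.25% and 1%. In each mouse 9.38% to 63.4% of the members that were not contractile were in this range (33.8% ± 12.7, n = 15). It held 250 cells with a median of 1824 UMIs, and the remaining 456 cells had a median of 1276 UMIs.

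Levels in these cells lay between those of the remaining members and of the endothelial cluster, compared in the 13 mice with enough cells. Vtn had 2743 ± 536 CPM in cells with endothelial UMIs, 7962 ± 1485 CPM in the remaining members and 52.6 CPM in the endothelial cluster. Flt1 and Cldn5 are among the 10 markers that chose these cells, so their high levels there are fixed by the choice. Cxcl12, a chemokine and not one of the 10, had 1556, 158 and 2068 CPM in the same order. Abcc9 (813, 2132 and 26.6 CPM), Pdgfrb (589, 1678 and 15.3 CPM) and Cacna1c (526, 1844 and 14.4 CPM) behaved as Vtn did. Pdgfb, the endothelial ligand of PDGFRB, had 409, 42.6 and 429 CPM, and Klf2, a transcription factor that shear stress induces in endothelium, 581, 60.2 and 783 CPM. The cluster's mean of 223 CPM for Pdgfb therefore came mostly from members with endothelial UMIs. Whether these were 2 cells in 1 droplet was not tested, and no doublet caller was run here.

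**Figure D4:**
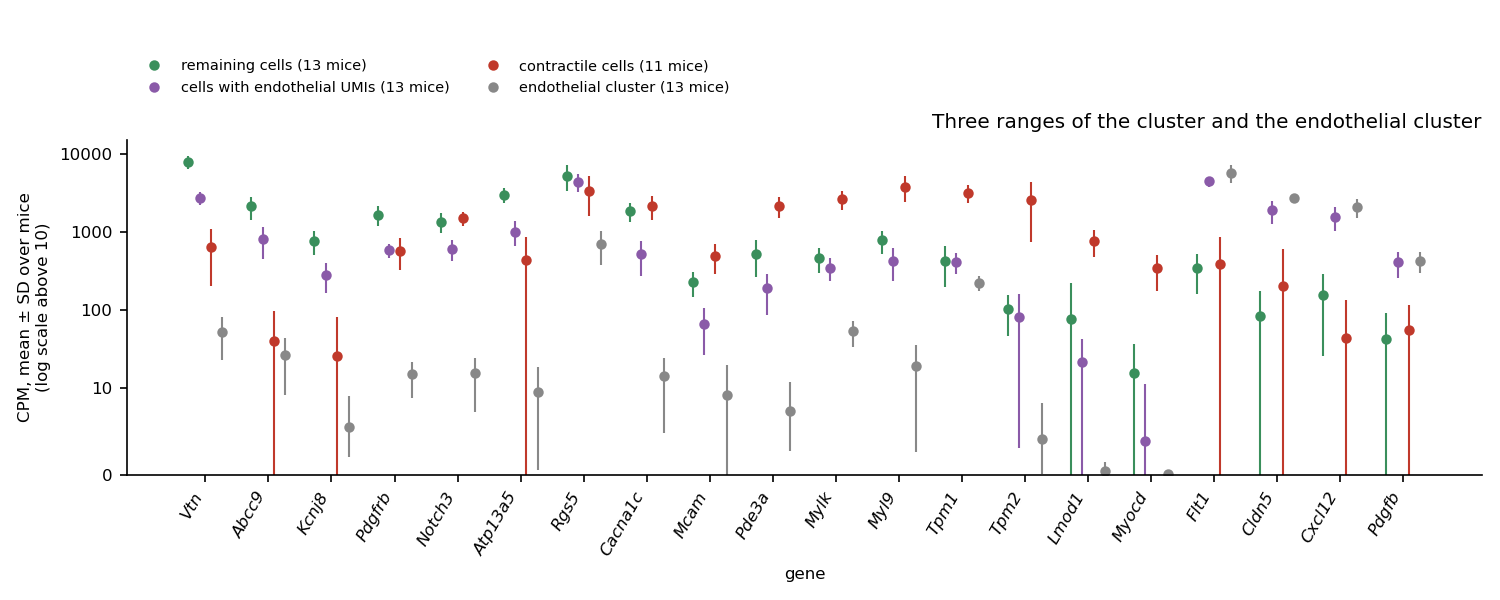
Mean CPM ± SD over mice (axis logarithmic above 10) of 20 genes in the remaining members, the members with endothelial UMIs and the endothelial cluster (13 mice each) and in contractile members (11 mice). Vtn, Abcc9 and Pdgfrb on the left are highest in the remaining members, whereas Cacna1c and Mcam are higher in contractile members. Contractile genes in the middle are highest in contractile members. Endothelial genes on the right, of which Flt1 and Cldn5 served to choose the cells, are low in both the remaining and the contractile members.

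To compare injured with uninjured mice, UMIs were summed per mouse and tested with edgeR's quasi-likelihood test over 6876 genes. No gene passed an adjusted p of 0.05 (0 of 6876, 0%) in injured against uninjured mice, at 1 d, 7 d or 14 d against uninjured, or in cKO against WT after injury or uninjured, and DESeq2 called 0 genes as well. The smallest adjusted p was 0.441 for the mean over injury and 0.801, 0.996 and 0.889 at 1 d, 7 d and 14 d. The gene with 0.441 was a marker of oligodendrocytes and was lower after injury. For the mean over injury the 6 oligodendrocyte markers tested had a median log2 fold change of -0.85. The 4 neuronal markers tested had -1.10, and all genes had -0.05. The part of RNA from other cell types in these values was not tested. At an unadjusted p under 0.05 edgeR had 278 genes for the mean over injury (101 higher, 1.47% of those tested, and 177 lower, 2.57%) and DESeq2 had 134. At 1 d, 7 d and 14 d DESeq2 had 120, 106 and 127 such genes. The time points share the same 4 uninjured mice and are not independent of each other. The genes named below were picked from lists on these unadjusted values and are given as values, since none of them passed the adjusted test.

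Pericyte markers held no call in any comparison. Of 14 pericyte markers 0 had an unadjusted p under 0.05 in any of the 6 comparisons, with median log2 fold changes of -0.03 for the mean over injury, -0.12 at 1 d, 0.00 at 7 d and 0.12 at 14 d, beside medians of -0.05, -0.12, 0.03 and 0.08 over all genes. Vtn had 3711, 4629, 7314 and 4377 CPM in the 4 uninjured mice and 2971 to 5098 CPM in the injured mice, with a log2 fold change of -0.36 ± 0.33 (SE, unadjusted p = 0.275, edgeR). Rgs5 had 5521, 3196, 2771 and 3139 CPM in the uninjured mice, of which WT replicate 1 was the highest, and 2390 to 6675 CPM in the injured mice, with a log2 fold change of 0.26 ± 0.36 (0.12 to 0.45 with 1 mouse left out). The ranges overlapped for both genes.

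At 1 d the inflammatory list and the matrix list each held 3 genes at an unadjusted p under 0.05, all higher. Lgals1, galectin-1, had 181 CPM in the WT mouse and 379 and 468 CPM in the cKO mice at 1 d, against 74.8, 79.6, 32.2 and 108 CPM in uninjured mice. Its log2 fold change was 1.66 ± 0.57 (adjusted p = 0.977, edgeR), and 1.46 to 2.50 with 1 mouse left out, the highest without cKO uninjured replicate 2. Stat3, the transcription factor downstream of the interleukin-6 family, had 285, 284 and 234 CPM against 201, 68.2, 96.7 and 60.1 CPM, a log2 fold change of 1.26 ± 0.46. S100a11, a calcium-binding protein, had 388, 284 and 636 CPM against 118, 193, 64.4 and 289 CPM (1.17 ± 0.50, and 0.68 without cKO 1 d replicate 2 to 2.17 without cKO uninjured replicate 2). For Lgals1 and Stat3 every mouse at 1 d lay above every uninjured mouse, and for S100a11 the ranges overlapped. These 3 of the 18 inflammatory genes tested had an unadjusted p under 0.05 and were higher, against 91 of all genes tested (1.32%), and none was lower (204 of all genes, 2.97%). The median over the list was 1.11 against -0.12 for all genes, with values from -2.36 to 3.59. It includes genes without a usable estimate, such as Lcn2 (3.59, SE 7859) and Ccl2 (2.54, SE 5549), and so does not describe the list as a whole.

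Matrix genes at 1 d were Mgp and Fn1. Mgp, matrix Gla protein, which hinders calcification of vessel walls, had 1423, 2060 and 1646 CPM at 1 d and 1007, 864, 709 and 613 CPM in uninjured mice, with a log2 fold change of 0.91 ± 0.39. It was 1.49 without WT 1 d replicate 1, where only cKO mice were compared. Fn1, fibronectin, had 595, 379 and 435 CPM against 232, 296, 193 and 168 CPM (1.07 ± 0.45). Neither gene's ranges overlapped. Both are more abundant in other vessel cells, Mgp with 5275 CPM in fibroblasts and Fn1 with 799 CPM in endothelial cells. With Timp1, an inhibitor of matrix proteases that had 25.9, 23.7 and 181 CPM (1, 1 and 27 UMIs) at 1 d and 0 CPM in all uninjured mice, 3 of 13 matrix genes tested were higher at an unadjusted p under 0.05, against 91 of all genes tested (1.32%). The median over the matrix list was 0.22 against -0.12 for all genes. Col3a1 (-3.77 ± 1.85), Ccn1 (-1.86 ± 0.93), Col1a2 (-1.62 ± 0.82) and Col5a2 (-3.17 ± 1.94) were lower, none of them at an unadjusted p under 0.05. Ifitm3, an interferon-induced membrane protein, had 1164, 971 and 1606 CPM against 492, 603, 258 and 553 CPM (1.21 ± 0.48), without overlap, and was the 1 gene of 11 interferon response genes at an unadjusted p under 0.05. It averaged 972 CPM in endothelial cells.

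These values at 1 d rest on few cells and shallow libraries. Both replicate 1 libraries at 1 d were among the 4 shallow ones. Without those the time point was 1 mouse, cKO replicate 2, compared with the cKO uninjured mice only. The log2 fold changes were then 2.62 for Lgals1, 1.86 for Stat3, 1.76 for S100a11, 1.53 for Mgp, 1.46 for Fn1 and 2.05 for Ifitm3. Without the members with endothelial UMIs the values were 2.13 for Lgals1, 1.26 for Stat3, 0.62 for Mgp and 1.67 for Ifitm3, and Fn1 did not pass the filter on low counts. Without contractile cells Lgals1 had a log2 fold change of 2.88 (adjusted p = 0.0875, edgeR).

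Axin2, a feedback inhibitor and target of Wnt and beta-catenin signalling, had the lowest p at 1 d among the genes of the lists. It had 0, 23.7 and 26.8 CPM at 1 d and 59.0, 91.0, 96.7 and 228 CPM in uninjured mice (log2 fold change -4.79 ± 1.23, unadjusted p = 5.12e-04, adjusted p = 0.804, edgeR). These were 0, 1 and 4 UMIs at 1 d and 15, 8, 3 and 19 UMIs in uninjured mice. The floor of 3 UMIs corresponds to 77.6 CPM in the WT mouse at 1 d, so whether the ranges overlap could not be told at this depth. Without that mouse only cKO mice were compared, and the log2 fold change was -2.75. Pdgfb, in the same list, had -0.92 ± 0.45 at 1 d. At 7 d Axin2 had 48.2 to 125 CPM and at 14 d 80.5 to 123 CPM. For the mean over injury the log2 fold change of Axin2 was -1.80 ± 0.59. Without WT 1 d replicate 1 it was -1.13, and it was also nearer to 0 by over 1.5 times without cKO uninjured replicate 2. With the conditions of the cell names it was 0.15. Axin2 was mainly a gene of the members that were not contractile (84.7 against 28.3 CPM) and averaged 111 CPM in endothelial cells.

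At 7 d the list genes at an unadjusted p under 0.05 were Cebpd, Egr1, Irf7, Synpo2, Irf1, Pde3a and Tgfb2. Cebpd, a transcription factor of the acute phase response, had 131, 46.0, 24.1 and 61.9 CPM against 236, 68.2, 64.4 and 156 CPM in uninjured mice (-1.33 ± 0.46), with overlap, and -1.96 to -0.69 with 1 mouse left out, nearest to 0 without cKO uninjured replicate 2 and also closer to it without WT uninjured replicate 1. Egr1, an immediate early transcription factor, had 210 and 317 CPM in WT and 48.2 and 128 CPM in cKO. Uninjured mice had 299 and 102 CPM in WT and 0 and 12 CPM in cKO. The log2 fold change of Egr1 was 1.86 ± 0.65, and 1.22 without cKO 7 d replicate 2 to 3.83 without cKO uninjured replicate 2. Its ranges overlapped, also within WT. With the conditions of the cell names Egr1, Irf1 and Synpo2 had log2 fold changes below 0 (-0.43, -0.93 and -0.77). Pde3a had 1288 and 915 CPM in WT and 410 and 638 CPM in cKO, against 515, 205, 193 and 541 CPM in uninjured mice, with a log2 fold change of 0.87 ± 0.40 (1.55 without cKO uninjured replicate 2) and overlapping ranges. Tgfb2, a growth factor, had 315, 179, 410 and 178 CPM against 138, 193, 96.7 and 84.2 CPM (0.88 ± 0.40), also with overlap. Irf7, the transcription factor that drives interferon genes, had 26.3, 10.2, 48.2 and 15.5 CPM against 86.6, 56.9, 32.2 and 48.1 CPM (-1.85 ± 0.76), with overlap as well. Irf1, another interferon regulatory factor, went the other way, with 0, 46.0, 48.2 and 34.1 CPM against 7.87, 0, 32.2 and 0 CPM (2.13 ± 0.95, and 4.14 without cKO uninjured replicate 1), on 3 UMIs in all uninjured mice together. Synpo2, a contractile list gene, had 3.18 ± 1.32, and -6.73 ± 2.27 for cKO against WT in uninjured mice. At an unadjusted p under 0.05 Pde3a was the 1 gene of 13 in the list of channels and cyclic GMP signalling, against 150 of all genes tested higher (2.18%) and 126 lower (1.83%).

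At 14 d the contractile list was the one with the most genes at an unadjusted p under 0.05, 6 of 13 tested, all higher, against 190 of all genes tested higher (2.76%) and 113 lower (1.64%). The median log2 fold change of the list was 0.94 against 0.08 for all genes, and its lowest was 0.54. Lmod1 had 399 and 137 CPM in WT and 313 and 95.4 CPM in cKO at 14 d, against 82.6, 68.2, 0 and 96.2 CPM in uninjured mice, with a log2 fold change of 1.67 ± 0.49 (adjusted p = 0.946, edgeR). Tpm1 had 1995, 692, 1286 and 748 CPM against 614, 614, 193 and 890 CPM (0.94 ± 0.44), and Des 69.4, 111, 152 and 89.4 CPM against 15.7, 56.9, 32.2 and 84.2 CPM (1.21 ± 0.51). The ranges overlapped for each of these 3 genes. Smtn, smoothelin, had 291, 130, 272 and 122 CPM against 94.4, 79.6, 32.2 and 108 CPM (1.20 ± 0.42) and its ranges did not overlap. Synpo2 and Cnn1 were the other 2. In uninjured mice both were lower in cKO than in WT, with log2 fold changes of -6.73 ± 2.27 and -5.24 ± 3.84. With 1 mouse left out the log2 fold change was 1.09 to 5.07 for Lmod1, 0.37 to 1.92 for Tpm1, 0.61 to 1.91 for Des and 0.78 to 2.05 for Smtn. The highest of each came without cKO uninjured replicate 2, which left the mouse with 12 members as the only uninjured cKO mouse. The lowest came without cKO 14 d replicate 1 for Lmod1, without WT 14 d replicate 1 (which also lowered Lmod1 by over 1.5 times) for Tpm1 and Smtn, and without WT uninjured replicate 1 for Des, and Tpm1 was also lower by over 1.5 times without cKO uninjured replicate 1. The coactivator Myocd had 108, 67.3, 169 and 38.7 CPM against 19.7, 11.4, 0 and 24.1 CPM, with a log2 fold change of 2.38 ± 0.68 (adjusted p = 0.909, edgeR), 1.66 to 4.82 with 1 mouse left out and highest without cKO uninjured replicate 2. The uninjured values of Myocd are 5, 1, 0 and 2 UMIs, and 3 UMIs correspond to 96.7 CPM in the mouse with 12 members, so an overlap cannot be told there.

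The share of contractile cells differed between the same mice. They made up 9.47% ± 7.24 (n = 4) of the members in uninjured mice, 12.9% ± 7.98 (n = 3) at 1 d, 19.7% ± 13.5 (n = 4) at 7 d and 16.4% ± 6.53 (n = 4) at 14 d. In the shallow libraries the share changed with thinning to 500 UMIs, which also leaves out every cell below that depth. An effect of depth and an effect of the cells left out were thus not separated. With cells thinned, WT replicate 1 went from 17.3% of 75 members to 4.55% of 22 at 1 d. At 7 d it went from 36.9% of 65 members to 19.2% of 26. For cKO replicate 1 the share went from 17.7% of 79 members to 14.3% of 28 at 1 d. At 7 d it went from 11.5% of 61 members to 16.0% of 25. At 14 d the mice had 22.1%, 10.0%, 22.0% and 11.5%, with both replicates 1 above both replicates 2, and the uninjured mice had 17.2%, 8.57%, 0% and 12.1%, where 0 of 12 members allows a share of up to 25%. Injured minus uninjured was 7.61 percentage points (p = 0.139, exact permutation), 4.58 points without cKO uninjured replicate 1, the mouse with 12 members, and 5.80 points in cells thinned to 500 UMIs. Without contractile cells the log2 fold changes at 14 d were -0.24 for Lmod1, 0.51 for Tpm1, 0.74 for Smtn and 1.29 for Des, and Myocd no longer passed the filter on low counts. A change per cell and a change in the share of contractile cells were thus not separated for Lmod1, Tpm1 and Smtn, while the value of Des was as large without them.

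Immediate early genes differed among themselves at 14 d. Egr1 had 243 and 128 CPM in WT and 503 and 226 CPM in cKO at 14 d. In uninjured mice it had 299 and 102 CPM in WT and 0 and 12 CPM in cKO. The ranges overlapped, with a log2 fold change of 2.52 ± 0.60 (unadjusted p = 2.20e-04, adjusted p = 0.889, edgeR), and 2.14 to 4.49 with 1 mouse left out. Both WT mice at 14 d lay between the uninjured WT mice. The genotype-averaged value thus rests on the low level in uninjured cKO mice. Klf2 had 217, 135, 49.5 and 161 CPM against 531, 421, 129 and 469 CPM (-1.58 ± 0.42, and -2.14 to -0.72 with 1 mouse left out) and Klf6 39.0, 55.7, 111 and 101 CPM against 212, 148, 96.7 and 132 CPM (-1.08 ± 0.37), both with overlap. The value farthest from 0 for Egr1 and nearest to 0 for Klf2 came without cKO uninjured replicate 2. Elsewhere in the lists Lgals1 (1.12 ± 0.45, and 0.62 to 1.97 with 1 mouse left out) and Col18a1 (1.42 ± 0.68, and 0.59 to 3.86) had an unadjusted p under 0.05 at 14 d, both lowest without WT 14 d replicate 1 and highest without cKO uninjured replicate 2, with cKO 14 d replicate 1 also lowering both by over 1.5 times. Irf7 had -1.65 ± 0.67, and -2.56 without cKO 14 d replicate 2. The uninjured mouse with the fewest members, cKO replicate 1 with 12 cells, was the lowest of the 4 for Klf2 and Klf6 and had no Egr1. Klf2 was a gene of the members with endothelial UMIs, and without those its log2 fold change was -0.37 and that of Klf6 -0.67. The endothelial markers summed to 0.767% to 0.979% of the UMIs in uninjured mice and 0.298% to 0.798% at 14 d, with all 10 markers detected in both groups. Their part in the values of Klf2 was otherwise not tested. Actinomycin D, which blocks transcription, was in the digestion buffer and the later buffers. The methods list none in the solutions for perfusion, slicing and slice incubation. Whether handling changed these genes was not tested.

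**Figure D5:**
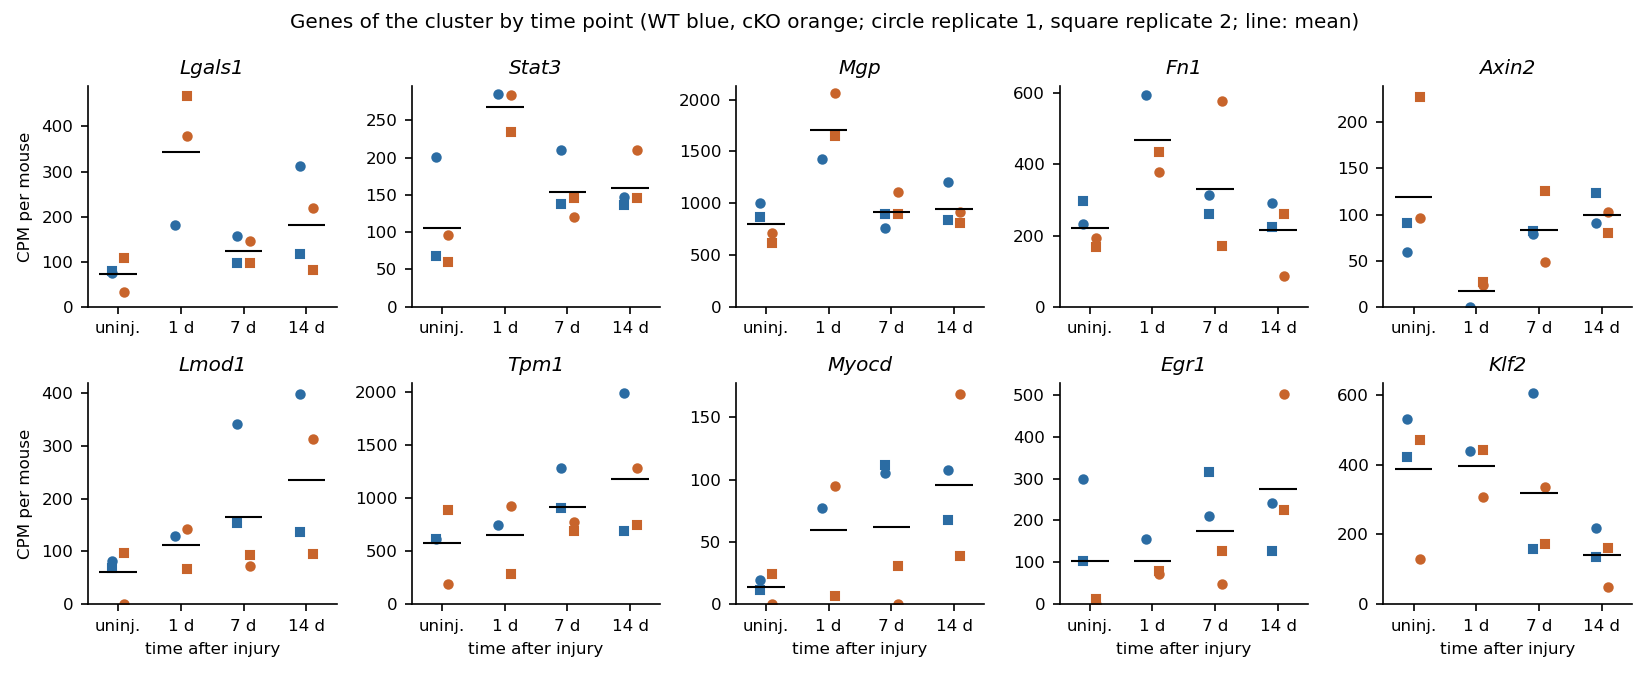
CPM per mouse of 10 genes by time point, WT in blue and cKO in orange, replicate 1 as circles and replicate 2 as squares, with the mean of the mice at a time point as a line. Lgals1, Stat3, Mgp and Fn1 are highest at 1 d and Axin2 is lowest there, while Lmod1, Tpm1 and Myocd have their highest means at 14 d; 0 of 6876 genes passed the adjusted test.

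The comparison of cKO with WT asks whether loss of Ryk from astrocytes went with a difference in vessel wall cells. At an unadjusted p under 0.05 edgeR had 178 genes higher in cKO (2.59% of those tested) and 66 lower (0.960%), DESeq2 had 72 in all, and the smallest adjusted p was 1. Among pericyte markers the median log2 fold change was 0.14 against 0.07 over all genes. Vtn had 2971 to 5098 CPM in the 5 injured WT mice (mean 3775 ± 811) and 3112 to 4973 CPM in the 6 injured cKO mice (4131 ± 630), a log2 fold change of 0.10 ± 0.35.

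Contractile genes had a median of -0.45 with 0 of 13 at an unadjusted p under 0.05. Acta2 had 1423, 2918, 1114, 3934 and 801 CPM in injured WT mice, and 421 to 2448 CPM with a median of 704 CPM in the 6 injured cKO mice (mean 1062 ± 768 against 2038 ± 1335). The ranges overlapped, and the log2 fold change was -0.94 ± 0.57 (unadjusted p = 0.111, edgeR) and -0.39 without WT 14 d replicate 1. The share of contractile members was 22.0% ± 9.89 (n = 5) in injured WT mice and 12.2% ± 6.77 (n = 6) in injured cKO mice, a difference of -9.06 percentage points averaged over time points (p = 0.157, exact permutation). It was -2.02 points (exact permutation p = 0.630) in cells thinned to 500 UMIs, which left out 179 members. With the conditions of the cell names it was -10.2 points (p = 0.05, exact permutation). The responses of the genotypes to injury differed by -3.02 points (p = 0.772, exact permutation of the difference).

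Eln, elastin, had 77.6, 184, 10.2, 160 and 27.9 CPM in injured WT mice and 0 to 71.0 CPM in injured cKO mice (-1.69 ± 0.74). It was -3.18 without cKO 7 d replicate 2, -0.94 without WT 7 d replicate 1 and 1.23 without contractile cells. Fos (-1.13 ± 0.43) and Atf3 (-1.14 ± 0.53) were the 2 of 15 immediate early genes at an unadjusted p under 0.05, with means of 448 and 83.0 CPM in injured WT and 256 and 45.1 CPM in injured cKO mice. Without WT 1 d replicate 1, which takes 1 d out of the mean, the value for Fos was -0.34. It also moved by over 1.5 times without WT 14 d replicate 1. Without WT 7 d replicate 2 the value for Atf3 was -0.56. Nid2, the second nidogen, had 0, 0, 5.11, 17.3 and 20.9 CPM in injured WT and 17.9 to 72.3 CPM in injured cKO mice and was the 1 gene of 17 basement membrane genes at that level. These low counts overlapped between genotypes.

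Markers of other cell types were among the genes with a low p in the same comparison. Of 6 oligodendrocyte markers tested 4 were higher in cKO at an unadjusted p under 0.05 (among them Mag, Cnp and Mbp), as were 2 of 4 neuronal markers (Snap25 and Kif5a), Gfap and Dcn. The oligodendrocyte markers summed to 0.144% ± 0.0373 of the UMIs in injured WT, 0.25% ± 0.0767 in injured cKO and 0.277% ± 0.116 in uninjured mice, and none of the 7 was at 0 in these groups. The part of RNA from other cell types in the remaining values of this comparison was not tested.

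Ryk itself, a receptor for Wnt ligands, averaged 148 ± 54.0 CPM in the cluster, from 60.2 to 218 CPM, against 59.1 CPM in endothelial cells, and was above them in 15 of 15 mice. It had 149 ± 72.9 CPM in contractile members and 168 ± 58.7 CPM in the others and was higher in contractile members in 5 of 11 mice. In injured WT mice it had 207, 158, 174, 78.1 and 195 CPM and in injured cKO mice 71.0, 60.2, 217, 181, 218 and 179 CPM. The ranges overlapped, and the log2 fold change was -0.28 ± 0.33 (unadjusted p = 0.406, edgeR), with a change of sign in 4 other settings. Since Cre was not aimed at these cells, and since 3′ tags need not lie in the deleted part of the gene, these counts do not check the knockout.

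In uninjured mice cKO against WT had 79 genes higher (1.15% of those tested) and 178 lower (2.59%) at an unadjusted p under 0.05, DESeq2 had 95 in all, and the smallest adjusted p was 0.998. Immediate early genes made up 3 of the lower ones among the lists (Btg2, Atf3 and Egr1, of 15 tested), and Synpo2, Adamts1 (both lower) and Axin2 (higher) were the others. Atf3, a stress-induced transcription factor, had 157 and 11.4 CPM in WT and 0 and 24.1 CPM in cKO mice, so that WT replicate 1 alone was high. Egr1 had 299 and 102 CPM in WT and 0 and 12 CPM in cKO mice, without overlap, but the cKO values are 0 and 1 UMI, and 3 UMIs correspond to 96.7 CPM in the first of these mice. The comparison had 2 mice per genotype, and 1 of the cKO mice had 12 members.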

How the data were processed

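The authors aligned reads and counted UMIs with Cell Ranger on mm10, kept cells with under 25% mitochondrial UMIs and over 200 genes, and clustered them with Seurat (R 4.1.2). The deposited matrix holds UMI counts, not normalized, over 55487 gene symbols, and the deposited cell table gives the percent of mitochondrial UMIs, the batch and the cluster of each cell. The files held 0 per-sample columns that were not used. Cluster and cell names are the authors'. Free RNA was not removed here.

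UMIs of Cluster 9 were summed per mouse. A mouse needed 50 cells in all and 10 members, which left 15 of 16. Sums were tested with edgeR 4.0.16 in R 4.3.3 (TMM, filterByExpr, quasi-likelihood fit with a mean per condition, Benjamini-Hochberg adjustment over 6876 genes, threshold 0.05). Contrasts average genotypes or time points with equal weight. Where leaving out libraries left a condition without a mouse, that genotype or time point was dropped from both sides of the contrast. Shares were compared by exact two-sided permutation over mice with scipy 1.17.1, and their exact binomial 95% intervals and floors of 3 counts cover counting error only. Ratios to other cells used a pseudocount of 1 CPM. Other steps used Python 3.11.15, numpy 2.4.6, pandas 2.3.3 and matplotlib 3.10.9. Scripts were tested on simulated counts. Gene positions are from GENCODE vM21 (GRCm38) by symbol, and the authors' annotation may differ.

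The rule for naming genes took 5 markers of the cluster, Ryk, the 10 leading genes by fold over other cells, called genes, and from each list (pericyte, contractile, transcription factor, signalling, channel, matrix, inflammatory, interferon, immediate early and cell cycle genes) the most abundant gene, with the rest as counts. Since no gene was called, list genes at an unadjusted p under 0.05, those described in contractile cells or in cells with endothelial UMIs, the markers of other cell types that are named, Pln and the CArG box were chosen after their values were seen. The members, the lists and the tests were chosen with earlier results of these data known. The alternatives were DESeq2 1.42.0, no filter on low counts, at least 20 members per mouse, a term for the replicate number or for the animal number series, an additive model, the conditions in the cell names, other limits or thinning for contractile cells and each mouse left out. Leaving out shallow libraries, contractile cells or cells with endothelial UMIs was added after seeing the data. The batch in the cell table equals the replicate number in 16 of 16 mice, so mice with equal numbers carry the same batch label. Whether they were processed together is not stated. Deviations from condition means correlated between same-numbered mice with a median r of 0.0332 (-0.188 to 0.226, above 0.1 in 6 of 21 pairs of conditions). Some genes are not reported here by name.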

Additional observations from a re-analysis of the deposited data

Results flagged for a closer look

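In the 4 uninjured mice the level of Rgs5 in WT replicate 1, 5521 CPM, stood apart from the other three mice, which had 2771 to 3196 CPM. Its gap to the nearest mouse made up 0.845 of the group's range. Of 27 groups of 4 to 6 mice checked for such a value this was the only 1, and chance alone marks about 1 in 20 groups.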

How the results depend on the processing

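Of 149 counts of called genes under other settings 135 were 0, as in the main fit. Of 930 log2 fold changes 919 kept direction and side of the threshold, as did 109 of 116 shares. Since no main value was past the threshold, staying on the same side of it is a weak check. With every gene that had at least 1 UMI (23439 genes), 12 genes were called for the mean over injury, 14 at 1 d, 8 at 7 d, 7 at 14 d and 3 for cKO against WT after injury, among them Cdk8, Gm42418 and Lars2, which are outside the lists, and Egr1 (2.61 at 14 d). With the animal number series (below or above 10000) as a term 6 genes were called for the mean over injury, 1 at 7 d and 10 at 14 d. All mice at 14 d had numbers above 10000, whereas the uninjured mice and the other time points held both kinds. The comparison of 14 d with uninjured mice is thus partly confounded with the series. Left without cells that carried endothelial UMIs, 1 gene was called for the mean over injury. Without the 4 shallow libraries 3 were called for cKO against WT after injury. In cKO against WT uninjured 3 were called with the conditions of the cell names and 1 without contractile cells (Egr1). With 1 mouse left out, 0 to 2 genes were called for the mean over injury (2 without WT uninjured replicate 1, among them Gm19951), 0 to 1 for cKO against WT uninjured (1 without WT uninjured replicate 2) and 0 in the other comparisons. The cause of these calls was not tested. In the fit with the replicate block, which groups mice by the batch label, 0 genes were called in every comparison (smallest adjusted p 0.0709 in edgeR, at 14 d), and it changed no call of a gene or share. The additive model gave no value for cKO against WT uninjured.

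The share of cells, injured minus uninjured, was -0.463 with the conditions of the cell names and -0.318 to 1.68 with 1 mouse left out (below 0 without the second replicate of either uninjured genotype, -0.318 and -0.0937). Members per 100 endothelial cells, cKO minus WT after injury, were 0.387 with the conditions of the cell names, 3.67 without shallow libraries, and -4.10 to 1.30 with 1 mouse left out (-4.10 without cKO 7 d replicate 2, 1.30 without cKO 7 d replicate 1). Log2 fold changes turned direction for Axin2 over injury (0.15) and Egr1, Irf1 and Synpo2 at 7 d (-0.43, -0.93 and -0.77), all with the cell names, Lmod1 at 14 d (-0.24) and Eln in cKO against WT (1.23), both without contractile cells, and Ryk in cKO against WT (0.10 with cell names, 0.04 in the additive model, -0.43 to 0.31 with 1 mouse left out, above 0 when that was WT 1 d replicate 1, 0.25 without shallow libraries). The depth of the shallow libraries, and the 12 members of 1 uninjured cKO mouse, limit what can be detected for low genes.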
